A study of Mus musculus with 12 samples.

Results

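The arrays described here compared ATF2 mutant melanocyte cultures that were given 4-hydroxytamoxifen (4-OHT) and then kept in hypoxia for 12 h at 1% O2 with the same kind of culture kept in normoxia. They are 4 of the 12 arrays of the series, 2 in hypoxia and 2 in normoxia, and were chosen by their labels. On these 4 arrays, 13694 of 46628 probes were above background (detection p under 0.01) at least once, and 4235 of the 13694 could be paired with a gene, for 3792 genes.

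The cells are primary melanocytes enriched from newborn mouse skin. Their strain is labelled FVB/129/OlaHsd/C57Bl/6, and the study's methods name FVB, 129P2/OlaHsd, C57Bl/6 and 129SvJ among the parents. By the study's methods every culture carried a tamoxifen-activated Cre recombinase driven by the tyrosinase promoter, a doxycycline-inducible oncogenic NRAS (Q61K) and no Ink4a. In the mutant cultures the floxed part of Atf2 encodes the domain that binds DNA and a stretch of the leucine zipper, and 4-OHT (10 µM for 8 h, followed by 2 µg/ml doxycycline for 24 h) activates the recombinase. Mutant cultures without 4-OHT (4 arrays) and WT cultures without 4-OHT (4 arrays), each in hypoxia and in normoxia, were used for comparison, and both had also been given doxycycline. The mutant cultures without 4-OHT are also labelled ATF2-/-, and no array of the series is labelled as WT with 4-OHT. Thus 4-OHT itself and loss of ATF2 cannot be told apart. The 2 arrays of a group lie on separate slides, and each slide holds 1 array of every group. The study names both biological and technical replicates for its arrays without saying which arrays they are, and no label ties an array to an animal, so p-values measure only the spread between the arrays.

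When oxygen is scarce, the prolyl hydroxylases that mark the HIF alpha subunits for destruction slow down, and HIF binds sites with the core ACGTG or GCGTG near its target genes. Its best known targets are the enzymes of glycolysis, glucose transporters, VEGF and the hydroxylases themselves. Melanocytes in skin live at low oxygen, and HIF is also active in melanoma. ATF2 is a leucine zipper factor of the AP-1 family, activated by stress kinases.

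The promoters of 4 genes are shown because their transcripts are described below, although none passed the test for the hypoxia response with 4-OHT. Each runs 5′ to 3′ from 250 bases before the start of transcription to 50 bases after it (RefSeq, GRCm38.p6). Capitals mark ACGTG or GCGTG on the printed strand and CACGT or CACGC, which are the same motifs on the opposite strand. In a CACGTG, the palindrome bound by MITF and MYC, the motif is read on both strands.

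Ldha (chr7:46845554-46845853, plus strand): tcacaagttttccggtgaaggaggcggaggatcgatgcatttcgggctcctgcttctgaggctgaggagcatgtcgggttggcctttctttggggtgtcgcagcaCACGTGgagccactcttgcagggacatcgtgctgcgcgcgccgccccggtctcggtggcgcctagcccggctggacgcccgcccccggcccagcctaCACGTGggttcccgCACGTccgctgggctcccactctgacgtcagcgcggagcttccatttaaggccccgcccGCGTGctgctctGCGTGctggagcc
Eno1 (chr4:150236947-150237246, plus strand): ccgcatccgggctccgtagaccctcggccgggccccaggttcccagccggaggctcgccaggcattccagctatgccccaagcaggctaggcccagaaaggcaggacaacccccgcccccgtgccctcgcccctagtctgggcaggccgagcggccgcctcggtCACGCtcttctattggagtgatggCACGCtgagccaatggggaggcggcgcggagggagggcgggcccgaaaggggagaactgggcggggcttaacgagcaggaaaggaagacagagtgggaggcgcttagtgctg
Egln3 (chr12:54203825-54204124, minus strand): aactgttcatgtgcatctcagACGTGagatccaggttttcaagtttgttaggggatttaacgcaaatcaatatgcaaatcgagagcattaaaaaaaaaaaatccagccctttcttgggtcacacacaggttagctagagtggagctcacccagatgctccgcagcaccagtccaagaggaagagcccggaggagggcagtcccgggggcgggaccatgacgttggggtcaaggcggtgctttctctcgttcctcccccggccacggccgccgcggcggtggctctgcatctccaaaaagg
Tpi1 (chr6:124814109-124814408, minus strand): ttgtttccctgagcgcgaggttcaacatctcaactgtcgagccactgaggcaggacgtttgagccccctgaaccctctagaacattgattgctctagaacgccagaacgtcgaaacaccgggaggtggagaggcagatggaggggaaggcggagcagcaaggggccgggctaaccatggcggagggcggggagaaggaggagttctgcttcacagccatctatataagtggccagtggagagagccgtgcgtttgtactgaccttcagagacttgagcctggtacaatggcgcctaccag

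The printed Ldha promoter held 7 matches, among them CACGTG, and the other RefSeq promoter of Ldha 2 matches and no CACGTG. Each of the 3 RefSeq promoters of Eno1 held 2 matches, the Egln3 promoter 1 match, and the Tpi1 window 0. Of all 32851 RefSeq promoters of this length, 43.8% hold at least 1 match, and the motif is in at least 1 promoter of 69.6% of the 3057 genes measured here that have one. For the measured glycolysis genes this was 13 of 16. A match describes these letters alone and says nothing of what bound there.

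The hypoxia response was uneven between the slides. On slide 1, 1013 probes differed at least 2-fold between the hypoxia and the normoxia array (600 higher and 413 lower in hypoxia), against 27 probes on slide 2. The within-slide log2 differences had an SD of 0.59 on slide 1 and 0.26 on slide 2, and correlated at r = 0.13 across probes, which are not independent replicates. The same correlation was 0.84 in mutant cultures without 4-OHT and 0.80 in WT cultures. Of the 4 arrays, the normoxia array of slide 1 had the lowest mean correlation with the others (0.947, against 0.959 to 0.967). For this reason most results with 4-OHT are given by slide, and fitted differences are over both slides.

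**Figure D1:**
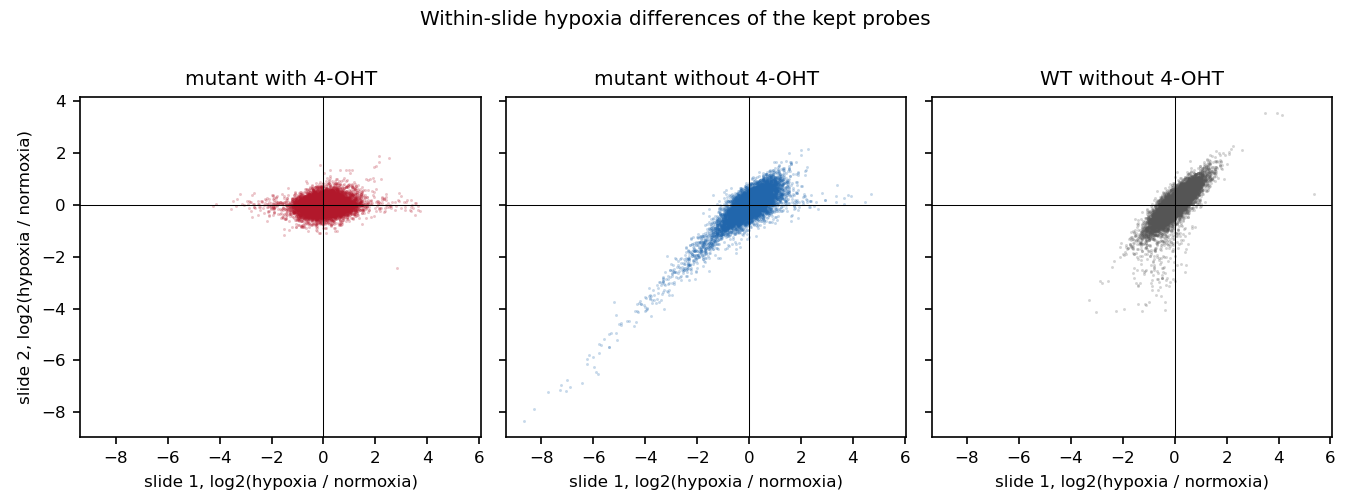
Each point is 1 of the 13694 kept probes, with its log2 ratio of hypoxia over normoxia on slide 1 (x axis) and on slide 2 (y axis), in mutant cultures with 4-OHT (left), mutant cultures without 4-OHT (middle) and WT cultures without 4-OHT (right). With 4-OHT the points spread along slide 1 (SD 0.59) and little along slide 2 (SD 0.26, r = 0.13), while in the other cultures they follow the diagonal (r = 0.84 and r = 0.80).

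Ribosomal protein genes moved with this unevenness. Their median log2 difference over 64 genes was 0.62 on slide 1 and -0.02 on slide 2, and 62 of 64 were higher in hypoxia on slide 1 but 28 on slide 2 (over all probes, 46.5% were higher on slide 1 and 49.3% on slide 2). Nuclear genes of the mitochondrial respiratory chain had a median of 0.88 on slide 1 and -0.10 on slide 2, with 40 and 13 of 42 genes higher. Transcripts encoded in the mitochondrial genome ran the other way, with medians of -0.53 and -0.08 over 11 probes. In level, the ribosomal protein genes had medians of 12.59 and 12.55 log2 units in hypoxia (slides 1 and 2) and 11.88 and 12.63 in normoxia, so that the normoxia array of slide 1 was the low one. Whether RNA quality or culture state had a part in this was not tested.

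As a check of the labels, the probe of Atf2 was not above background on any of the 12 arrays, so it could not tell mutant from WT, and whether it lies in the deleted part is not known here. Nras had 50.4 and 43.3 normalized units in hypoxia (slides 1 and 2) and 75.3 and 42.8 in normoxia, a difference of -0.28 ± 0.18 log2 units (SE) that did not pass the test (limma adjusted p = 0.46). A probe for p16/Ink4a was above background on 4 of 4 arrays, with raw intensities of 113 and 281 in hypoxia and 67.2 and 245 in normoxia. Its place relative to the Ink4a deletion is not known here, and thus it checks nothing. Probes for Cre and the tetracycline transactivators were not above background on any array.

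The melanocyte label was set against marker genes. Of the melanosome list, 15 of 44 genes had a named probe and 11 of them passed the detection p on every one of the 4 arrays, with a summed level of 44379 and 40146 units in hypoxia and 42817 and 41175 in normoxia. Dct, the dopachrome tautomerase of melanin synthesis, had 13102 units on both hypoxia arrays and 13102 and 14468 in normoxia, 1.11 to 1.22 times below the brightest probe, where little room is left to measure a rise. Tyr, Tyrp1, Mitf and Sox10 had no named probe here. Of 15 myeloid and 7 mast cell genes none was above background among the 9 and 3 with a named probe. Keratinocyte genes were above background in 2 of 10 and fibroblast genes in 6 or 7 of 11. Endothelial genes were above background in 3 of 6, and Schwann cell and neural crest genes in 2 or 3 of 8. The latter had summed levels of 3509 and 4260 units in hypoxia and 2401 and 5174 in normoxia. Smooth muscle and pericyte genes were above background in 1 of 2 and adipocyte genes in 0 or 1 of 2. Skeletal muscle genes were above background in 12 to 14 of 19, with summed levels of 11943 and 11714 units in hypoxia and 11560 and 9911 in normoxia. The cells that carried these muscle transcripts cannot be told from bulk RNA, in which a change in the number of cells of a type and a change in RNA per cell look alike.

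In the limma fit with the slide pair as a block, 5 of 13694 probes (0.0365%) rose in hypoxia at an adjusted p under 0.05 and 0 fell, while 2005 probes had an unadjusted p under 0.05 (1080 higher and 925 lower). The fit takes its spread from all 3 kinds of culture, and the residual SD was wider with 4-OHT (0.31 log2 units as a root mean square over probes) than in mutant cultures without it (0.20) and in WT cultures (0.17). The count was 3 without replicate 1 of the mutant cultures with 4-OHT, 2614 without their replicate 2, and 0 without either replicate of the mutant cultures without 4-OHT. In a fit to the 4 arrays alone it was 0, with 619 probes at an unadjusted p under 0.05. The largest called difference was that of the neomycin resistance gene NeoR, a selection marker used in building targeted alleles. NeoR had 2348 and 3439 normalized units in hypoxia (slides 1 and 2), against 404 and 992 in normoxia. Both hypoxia arrays were above both normoxia arrays, and the difference was 2.17 ± 0.19 log2 units (adjusted p = 0.0121). It also rose by 1.61 in mutant cultures without 4-OHT and by 1.62 in WT cultures. Geneticin, to which this gene gives resistance, was used in preparing the cultures by the study's methods.

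The other 4 called probes have no gene name here. Probe scl34861.7.1_55-S had 114 and 110.2 units in hypoxia, while in normoxia it was not well above background (26 and 29.9), and was at least 3.23-fold higher in hypoxia (adjusted p = 0.0121). Probe scl46141.4_0-S had 97.4 and 118 units in hypoxia, against 22.3 and 38.1 in normoxia (1.88 ± 0.18 log2 units, adjusted p = 0.0121). The remaining probes, singled out after their values were seen, were scl31801.4.1_81-S and scl38890.17_310-S. Over both slides, the first was higher by 1.76 log2 units in hypoxia (2.02 and 1.49 within the slides). The second was higher by 1.71 (1.95 and 1.47). All 5 probes were also called higher in WT cultures (9.56% over all probes), and 4 of them in mutant cultures without 4-OHT (7.09%). The exception was scl31801.4.1_81-S, which had a difference of -0.19 in mutant cultures without 4-OHT. Its difference between the responses of 1.95 ± 0.26 log2 units passed the test (adjusted p = 0.00198).

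**Figure D2:**
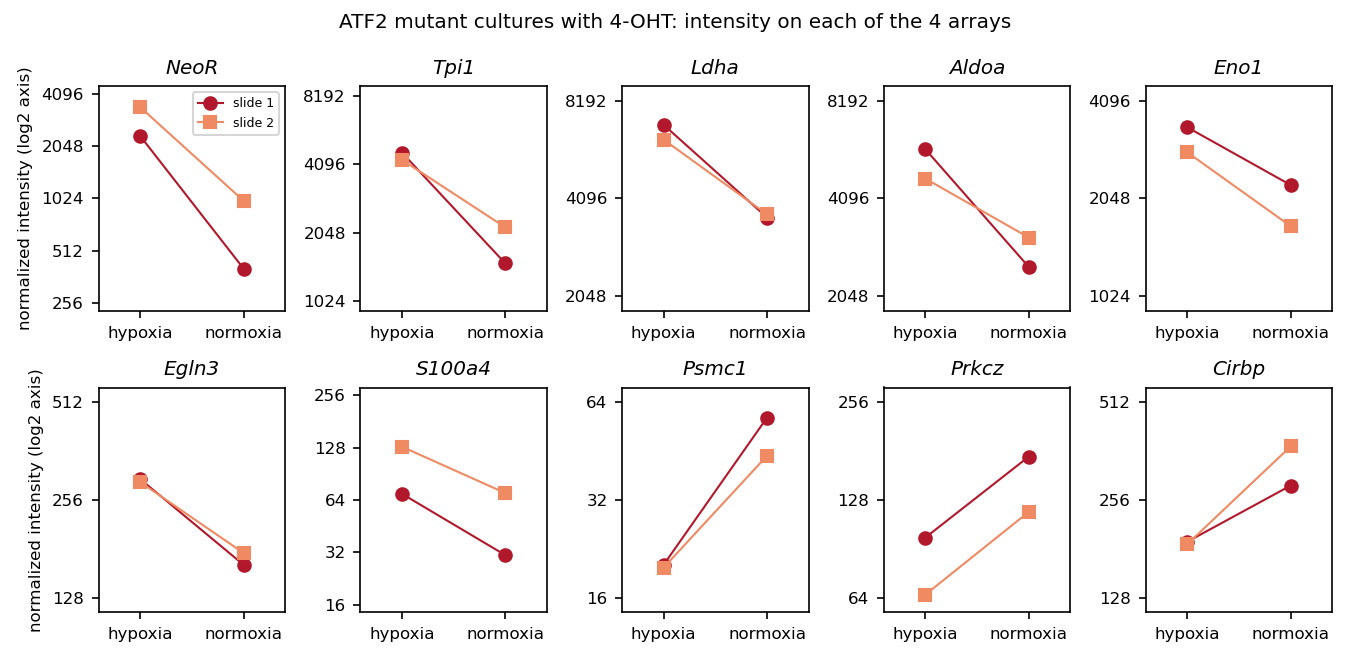
Normalized intensity (log2 axis) of 10 genes on the 4 arrays of mutant cultures with 4-OHT, hypoxia at the left and normoxia at the right of each panel, with a line for each slide. NeoR, Tpi1, Ldha, Aldoa, Eno1 and Egln3 were higher on both hypoxia arrays than on both normoxia arrays, S100a4 was higher within each slide but not across slides, and Psmc1, Prkcz and Cirbp were lower.

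The glycolysis genes had like medians on both slides, although single members differed between them. The median log2 difference of its 16 measured genes (of 35 listed) was 0.39 on slide 1 and 0.44 on slide 2, against -0.01 and 0.00 over all 3792 named genes. Of the 16, 12 were higher in hypoxia on both slides and 1 was lower on both, where over all probes 24.5% were higher on both and 28.6% lower on both. For 10, both hypoxia arrays lay above both normoxia arrays, and for 0 of them below (11.9% and 12.8% over all probes). No single member passed the threshold after adjustment over all probes. An unadjusted p under 0.05 was found for 8 of 16, all higher (14.6% over all probes, in either direction).

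Tpi1, triosephosphate isomerase, had the largest difference. It had 4622 and 4293 units in hypoxia, against 1495 and 2159 in normoxia, a difference of 1.31 ± 0.20 log2 units (adjusted p = 0.171). Ldha, which turns pyruvate into lactate, had 6906 and 6219 units in hypoxia and 3577 and 3658 in normoxia (0.86 ± 0.16, adjusted p = 0.186). The slides agreed closely for Ldha, with 0.95 and 0.77 log2 units. Aldoa, fructose bisphosphate aldolase, had 5809 and 4717 units in hypoxia and 2519 and 3105 in normoxia (0.90 ± 0.18, adjusted p = 0.204). Eno1, enolase, had 3395 and 2844 units in hypoxia, against 2253 and 1683 in normoxia (0.67 ± 0.15, adjusted p = 0.238). In each of these 4 genes the hypoxia arrays stood above both normoxia arrays (11.9% over all probes).

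Other steps of the pathway differed less, except Pfkl, which was uneven between the slides. Pgk1, phosphoglycerate kinase, had 2075 and 2497 units in hypoxia and 1701 and 1808 in normoxia. Gapdh had 11501 and 9409 units in hypoxia and 7579 and 7463 in normoxia, again with no overlap. Pfkl, the liver type phosphofructokinase, had 2378 and 3091 units in hypoxia and 2014 and 1217 in normoxia, with the slides at 0.24 and 1.34 log2 units. The muscle enolase Eno3 was higher by 0.48 and 0.42 log2 units. Pfkm, the muscle type phosphofructokinase, was the member lower on both slides, by 0.01 and 0.08 log2 units. Pfkfb2, Pfkfb4 and Pgam1 had opposite signs on the slides.

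**Figure D3:**
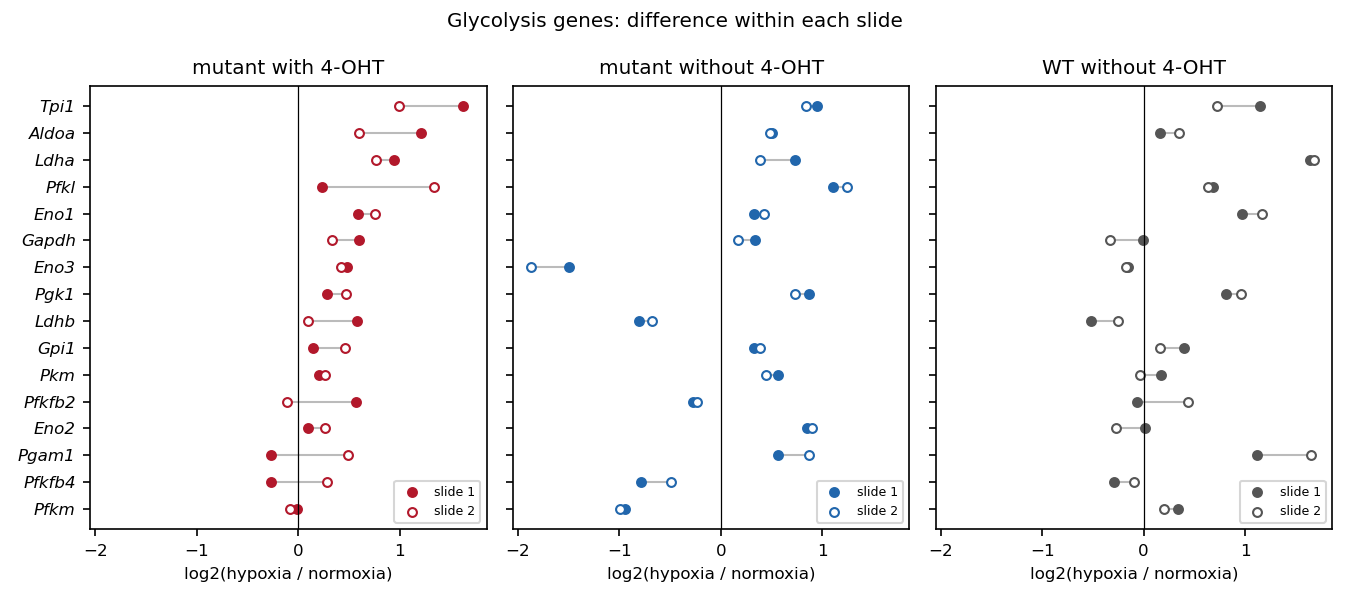
Log2 ratio of hypoxia over normoxia within slide 1 (filled) and slide 2 (open) for the 16 measured glycolysis genes, in mutant cultures with 4-OHT (left), mutant cultures without 4-OHT (middle) and WT cultures (right), ordered by the mean difference with 4-OHT. With 4-OHT, 12 of 16 genes lie right of 0 on both slides, and Eno3, Pfkm and Ldhb lie left of 0 in mutant cultures without 4-OHT.

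The glycolysis response was set beside the other cultures, which share no array with it. The median was 0.36 log2 units with 4-OHT by the mean of the slides, 0.44 in mutant cultures without 4-OHT and 0.26 in WT cultures. Without 4-OHT, 5 of 16 genes were called higher and 4 lower (7.09% and 9.31% over all probes), and in WT cultures 5 were called higher and 0 lower (9.56% and 8.03%). The response of 3 genes was called higher with than without 4-OHT (5.32% of all probes; 1.48% were called lower). These were Eno3, with a difference between the responses of 2.14 log2 units (adjusted p = 4.92e-04), Ldhb with 1.09 (adjusted p = 0.0341) and Pfkm with 0.92 (adjusted p = 0.0358). Eno3 and Pfkm are muscle forms, and each of the 3 was lower in hypoxia without 4-OHT, by 1.68, 0.75 and 0.96 log2 units. Against the WT response, 0 of 16 genes were called (0.321% of all probes were higher and 0.336% lower).

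Egln3, the HIF prolyl hydroxylase PHD3, had 297 and 291 units in hypoxia and 162 and 176 in normoxia with 4-OHT. The hypoxia arrays stood above both normoxia arrays, by 0.88 and 0.73 log2 units within the slides (0.80 ± 0.17, adjusted p = 0.206). In mutant cultures without 4-OHT, Egln3 had 44 and 48.4 units in hypoxia, above background on 1 array, and 191 and 156 in normoxia, and it fell by 1.90 log2 units (adjusted p = 1.03e-04). The responses with and without 4-OHT differed by 2.71 log2 units (adjusted p = 1.61e-04). In WT cultures Egln3 was not well above background in normoxia and was at least 3.04-fold higher in hypoxia (adjusted p = 0.00178). The WT hypoxia arrays had 75.8 and 92.3 units.

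Of the 9 measured genes of the HIF pathway, Egln3 among them, 0 were called with 4-OHT (0.0365% of all probes were called higher). Egln1, the main HIF prolyl hydroxylase, had opposite signs on the slides (-0.35 and 0.48 log2 units). Elob, elongin B of the VHL ubiquitin ligase, had 4594 and 4365 units in hypoxia and 1487 and 3908 in normoxia, so that the slide 1 normoxia array carried the difference (1.63 and 0.16 log2 units). Hsp90aa1, a chaperone that binds HIF, had 134 and 304 units in hypoxia and 234 and 327 in normoxia, and its response was called lower than that without 4-OHT (-1.46 log2 units, adjusted p = 0.0125). The probe of Hif1a was not above background on any array.

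Among 13 further HIF targets, 5 were higher on both slides and 3 lower on both (24.5% and 28.6% over all probes). Their medians were 0.05 and 0.18 log2 units. Mif, a cytokine, had 6995 and 5977 units in hypoxia and 2727 and 4557 in normoxia (1.36 and 0.39 log2 units within the slides, adjusted p = 0.282). Selenbp1, a selenium-binding protein, was higher by 0.42 and 0.32, and Stc2, a stanniocalcin, by 0.81 and 0.13. In WT cultures 5 of the 13 were called higher (9.56% over all probes), among them Errfi1, Trf and Vegfc. With 4-OHT these 3 were at 0.25, -0.16 and 0.07 log2 units. Against the WT response, 0 of the 13 were called (0.321% of all probes were higher and 0.336% lower). Slc2a1, Vegfa, Car9, Bnip3 and Hk2 had no named probe.

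Of the named genes with the smallest p, those higher in hypoxia after NeoR, Tpi1, Ldha and Aldoa were Il1rl1, Gch1, H3c6, Zfp532, Ptgis and Klf2, and none of these passed the threshold (adjusted p of 0.186 to 0.194). Il1rl1, the receptor of interleukin 33, had 77.6 and 38.6 units in hypoxia, and in normoxia it was not well above background, so that it was at least 1.70-fold higher in hypoxia (adjusted p = 0.186). Gch1, the first enzyme of tetrahydrobiopterin synthesis, and Klf2, a zinc finger transcription factor, were likewise not well above background in normoxia and were at least 1.51-fold and 1.47-fold higher in hypoxia (adjusted p = 0.186 and 0.194). H3c6, a histone H3 gene, had 147 and 135 units in hypoxia and 69.4 and 84.1 in normoxia. Ptgis, prostacyclin synthase, had 111 and 78 units in hypoxia and 47.2 and 48.1 in normoxia. Zfp532 had 101 and 68.8 units in hypoxia and 57.7 and 33.8 in normoxia, and 1 of its normoxia arrays was above background. In H3c6, Ptgis and Zfp532 both hypoxia arrays exceeded both normoxia arrays (11.9% over all probes), but these genes were picked by p on the same arrays. For Ptgis the response with 4-OHT was called higher than without it (adjusted p = 3.97e-04), and without 4-OHT Ptgis was not well above background in hypoxia, at least 2.14-fold lower (adjusted p = 0.000509).

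The 10 named genes with the smallest p on the lower side were Psmc1, Cracr2b, Prkcz, Tcof1, Mapt, Sphk1, Itpk1, Dgkg, Zc3h6 and Cirbp, with adjusted p of 0.171 to 0.212. Psmc1, an ATPase of the proteasome, had 20.2 and 19.8 units in hypoxia, where it was not well above background, and 57.4 and 43.8 in normoxia (at least 1.48-fold lower, adjusted p = 0.171). Cracr2b, a regulator of calcium release-activated channels, was also not well above background in hypoxia and was at least 1.41-fold lower (adjusted p = 0.186). Prkcz, an atypical protein kinase C, had 98 and 65.4 units in hypoxia and 174 and 118 in normoxia, and was 0.83 and 0.85 log2 units lower within the slides. Its groups did not overlap.

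Itpk1, a kinase of inositol phosphates, had 1101 and 756 units in hypoxia and 2266 and 1143 in normoxia. Sphk1, sphingosine kinase, had 311 and 235 units in hypoxia and 505 and 400 in normoxia. Dgkg, a diacylglycerol kinase, had 49.5 and 31.1 units in hypoxia and 89.3 and 55.1 in normoxia. In each of these 3 genes both hypoxia arrays lay below both normoxia arrays (12.8% over all probes). They were picked by p on these same arrays, which favours such a gap. Mapt, the microtubule protein tau, differed by -1.02 and -0.59 log2 units within the slides, Tcof1, treacle of ribosome biogenesis, by -1.31 and -0.63, and Zc3h6, a zinc finger protein, by -0.95 and -0.61.

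Cirbp, the cold-inducible RNA-binding protein, had 190 and 187 units in hypoxia and 283 and 374 in normoxia with 4-OHT, with no overlap (-0.79 ± 0.17, adjusted p = 0.212). It fell by 1.87 log2 units in mutant cultures without 4-OHT (adjusted p = 1.18e-04) and by 1.41 in WT cultures (adjusted p = 0.00356). The difference of 1.08 log2 units between the responses with and without 4-OHT passed the test (adjusted p = 0.0295), and that of 0.62 from the WT response did not (adjusted p = 0.184).

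Cholesterol and fatty acid synthesis genes had medians of 0.13 and 0.20 log2 units. Of the 17, 9 were higher on both slides and 1 lower on both (24.5% and 28.6% over all probes). Elovl6, a fatty acid elongase, had 484 and 399 units in hypoxia and 300.4 and 294 in normoxia. Nsdhl and Fdps of sterol synthesis were higher by 0.65 and 0.29 and by 0.80 and 0.21 log2 units within the slides. Ribosome biogenesis and MYC target genes had 11 of 21 higher on both slides and 1 lower on both (24.5% and 28.6%). Their medians were 0.35 and 0.06. Srm, spermidine synthase, was at 0.51 and 0.47, and Pes1, a nucleolar protein, at 0.35 and 0.85.

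Autophagy genes lay on the lower side on slide 1, while on slide 2 their median hardly differed from that of all named genes. Of 11 measured genes, 0 were higher and 6 were lower on both slides (24.5% and 28.6% over all probes). The medians were -0.38 on slide 1 and -0.02 on slide 2. Pink1, the kinase that starts mitophagy, had 409 and 367 units in hypoxia and 500.5 and 520.3 in normoxia, below both normoxia arrays on both hypoxia arrays (adjusted p = 0.329). Gabarapl2, a membrane anchor of the autophagosome, was at -1.15 and -0.29 log2 units, and Lamp2, a lysosomal membrane protein, at -0.78 and -0.01. By test, 0 of the 11 fell, as did 0 of all 13694 probes.

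Immediate early and AP-1 genes had medians of 0.49 on slide 1 and 0.00 on slide 2. Of the 8, 4 were higher on both slides and 1 lower on both (24.5% and 28.6% over all probes). Single genes of this and other lists are given here. Fosl2, an AP-1 partner, had 440.5 and 290.0 units in hypoxia and 301 and 179 in normoxia (0.55 and 0.70 log2 units, adjusted p = 0.271). S100a4, a calcium-binding protein listed with both the melanocyte genes and the fibroblast markers, had 69.5 and 129.7 units in hypoxia and 30.8 and 70.1 in normoxia, and was higher within each slide, by 1.17 and 0.89 log2 units. The slide 1 hypoxia value lay just under the slide 2 normoxia value, so the groups overlapped. Ccnd1, cyclin D1, was higher by 0.40 and 0.60. Krt17, a keratin, was higher by 0.77 and 0.42, and Acta2, smooth muscle actin, by 1.36 and 0.22. None of these passed the test after adjustment. Srxn1, sulfiredoxin of the oxidative stress response, had 380.4 and 273 units in hypoxia and 462 and 496.5 in normoxia.

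Melanosome genes had medians of 0.00 and -0.14 log2 units. Of the 11, 3 were higher and 3 lower on both slides (24.5% and 28.6% over all probes). Gpnmb had 12575 and 11212 units in hypoxia and 13499 and 10876 in normoxia. Trpm1, a channel of melanocytes, was at -0.76 and -0.18, and Sox5, a transcription factor, at -0.70 and -0.27. Rab7 had 1159 and 1642 units in hypoxia and 231 and 1421 in normoxia, so that its difference of 2.33 log2 units on slide 1 rested on the normoxia array, against 0.21 on slide 2.

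**Figure D4:**
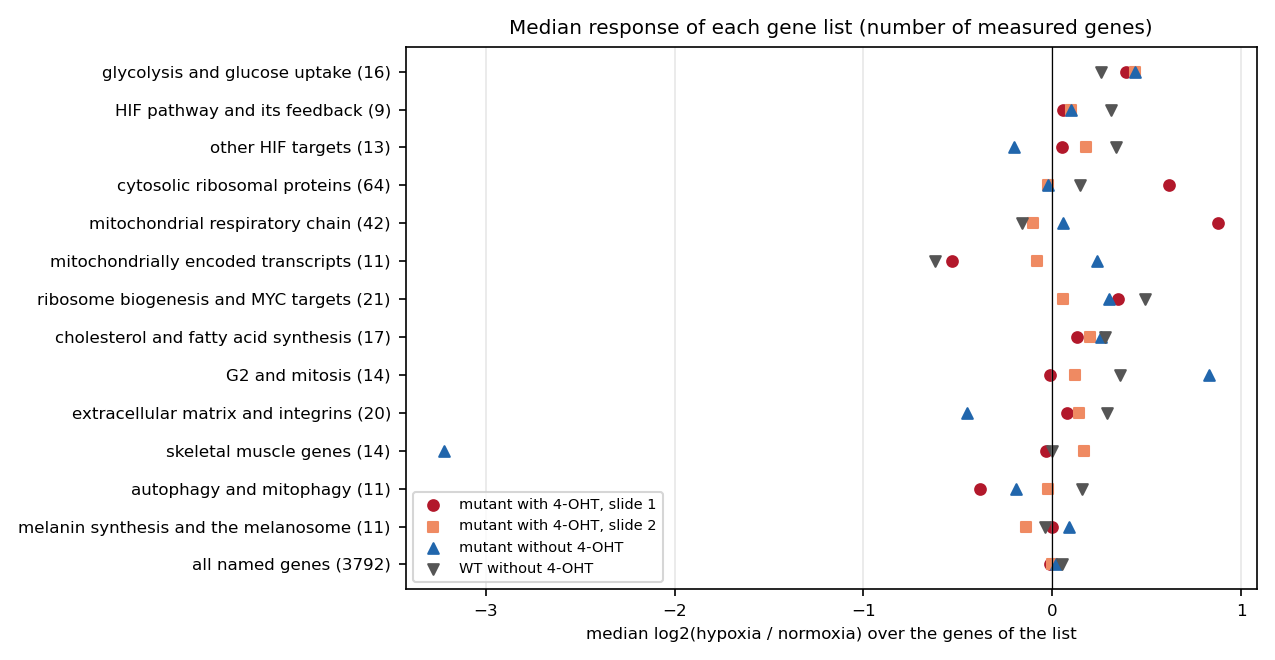
Median log2 ratio of hypoxia over normoxia over the measured genes of each list, for mutant cultures with 4-OHT on slide 1 (circles) and slide 2 (squares), mutant cultures without 4-OHT (upward triangles) and WT cultures (downward triangles). Glycolysis is at 0.39 and 0.44 on the slides with 4-OHT, ribosomal protein genes at 0.62 and -0.02, and skeletal muscle genes lie near 0 except at -3.22 in mutant cultures without 4-OHT.

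The response with 4-OHT was then tested against that without it in mutant cultures. For 729 of 13694 probes (5.32%) the response with 4-OHT was higher and for 203 (1.48%) lower. Over these 932 probes the responses had a median size of 0.30 log2 units with 4-OHT and 1.24 without it, from the same arrays as the test. Without replicate 2 of the mutant cultures with 4-OHT 3587 probes were called, and without replicates 1 and 2 of those without 4-OHT 318 and 478.

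Skeletal muscle genes were prominent among the large differences. Of 14 measured genes, 0 were called with 4-OHT (0.0365% of all probes were called higher), 13 fell in hypoxia without 4-OHT (9.31%), and 12 were called higher in the difference (5.32%). Chrna1, a subunit of the muscle acetylcholine receptor, had 2746 and 3999 units in hypoxia and 2288 and 3185 in normoxia with 4-OHT. In mutant cultures without 4-OHT it had 2666 and 2844 units in normoxia and was not well above background in hypoxia (20.2 and 19.7), at least 96.3-fold lower (adjusted p = 3.54e-08). The difference between the responses was called (adjusted p = 7.23e-07), and its fitted size of 7.40 log2 units depends on the background level. Chrng, another receptor subunit, had 2674 and 1976 units in hypoxia and 1592 and 1573 in normoxia with 4-OHT, and was at least 81.4-fold lower in hypoxia without it (adjusted p = 8.18e-08). Its fitted difference between the responses was 7.41 log2 units, with no order between it and Chrna1. In WT cultures neither receptor subunit was above background on any array.

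Neurl1a, a ubiquitin ligase, Myh7, a slow myosin heavy chain, and Mgp, matrix Gla protein, had fitted differences between the responses of 5.83, 5.61 and 4.78 log2 units, which likewise depend on the background level. With 4-OHT, Neurl1a had 1270.4 and 826 units in hypoxia and 954 and 758 in normoxia. Myh7 had 845 and 778 units in hypoxia and 1702 and 647 in normoxia, with opposite signs on the slides. In mutant cultures without 4-OHT all 3 were not well above background in hypoxia and were at least 35.9-fold, 47.5-fold and 15.8-fold lower there (adjusted p = 2.14e-07, 1.93e-06 and 1.72e-05). Of the extracellular matrix genes, 8 of 20 were called higher with than without 4-OHT (5.32% over all probes), 0 were called with 4-OHT (0.0365% higher), and 8 were called lower in hypoxia without it (9.31%). Fbln2, fibulin 2, had 140.4 and 118 units in hypoxia and 113 and 62.6 in normoxia with 4-OHT, and the difference between its responses was called (adjusted p = 2.10e-04). Without 4-OHT it was not well above background in hypoxia, at least 3.29-fold lower (adjusted p = 7.05e-05).

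On the lower side, the named genes with the 5 largest fitted differences from the response without 4-OHT were Psmc1, the endoplasmic reticulum chaperone Hspa5, Tcof1, the topoisomerase Top2b and Rfng, a glycosyltransferase that modifies Notch. Of these, Tcof1 was above background on every array (-1.55 log2 units), and Hspa5 (-1.60) and Rfng (-1.49) on at least 1 array of each group. Hspa5 had 42.1 and 77.1 units in hypoxia and 57.7 and 60.4 in normoxia with 4-OHT, and 111 and 214 in hypoxia and 40.9 and 67.5 in normoxia without it. Psmc1 was not well above background in hypoxia with 4-OHT or on any array without it, and Top2b in hypoxia with 4-OHT or in normoxia without it, so that their differences have no measured size. Genes of G2 and mitosis were called lower in the difference for 6 of 14 (1.48% over all probes) and higher for 0 (5.32%). Mki67, the Ki-67 antigen, had 112 and 68.5 units in hypoxia and 102 and 62.2 in normoxia with 4-OHT. It rose by 1.32 log2 units without 4-OHT (adjusted p = 0.00109), where 11 of the 14 genes rose (7.09% over all probes).

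Against the WT response, 44 probes (0.321%) were higher and 46 (0.336%) lower in mutant cultures with 4-OHT. Over these 90 probes the responses had a median size of 0.24 log2 units with 4-OHT and 1.37 in WT cultures, again from the same arrays as the test. The 5 largest named genes on the lower side were Prl2c2, a growth factor of the prolactin family (-2.64 log2 units), the chromatin protein Cbx3 (-2.06), the secreted serpin Serpina3n (-2.00), the zinc finger gene Zfp180 (-1.80) and Col8a1, a collagen (-1.72). Serpina3n had 2226 and 2014 units in hypoxia and 1953 and 2542 in normoxia with 4-OHT, against 2036 and 2202 in hypoxia and 536 and 580.1 in normoxia in WT cultures. The hypoxia levels were alike, and the normoxia level was lower in WT.

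Fabp3, a fatty acid-binding protein, was the largest on the higher side (2.44 log2 units), followed by Nckap5l (2.02), E030030I06Rik (1.82), Fbln1, a fibulin (1.75), and Slc24a4, a sodium, calcium and potassium exchanger (1.71). Slc24a4 had 390.4 and 389.9 units in hypoxia and 439.8 and 441 in normoxia with 4-OHT, against 127 and 119 in hypoxia and 468 and 441 in normoxia in WT cultures. Fabp3 had 457 and 402 units in hypoxia and 367 and 480 in normoxia with 4-OHT, against 41.2 and 34.4 in hypoxia and 219 and 182 in normoxia in WT cultures. E030030I06Rik was not well above background in hypoxia in WT cultures, at least 2.16-fold lower than in normoxia (adjusted p = 0.0135). Cbx3 was not well above background in normoxia in WT cultures and was at least 2.85-fold higher in hypoxia (adjusted p = 0.00379). The adjusted p of these 10 genes lay between 0.0245 and 0.0477. The count of 90 was 10 without WT replicate 1, and 0 without WT replicate 2 or without either replicate of the mutant cultures without 4-OHT. It was 241 and 2540 without replicates 1 and 2 of the mutant cultures with 4-OHT.

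**Figure D5:**
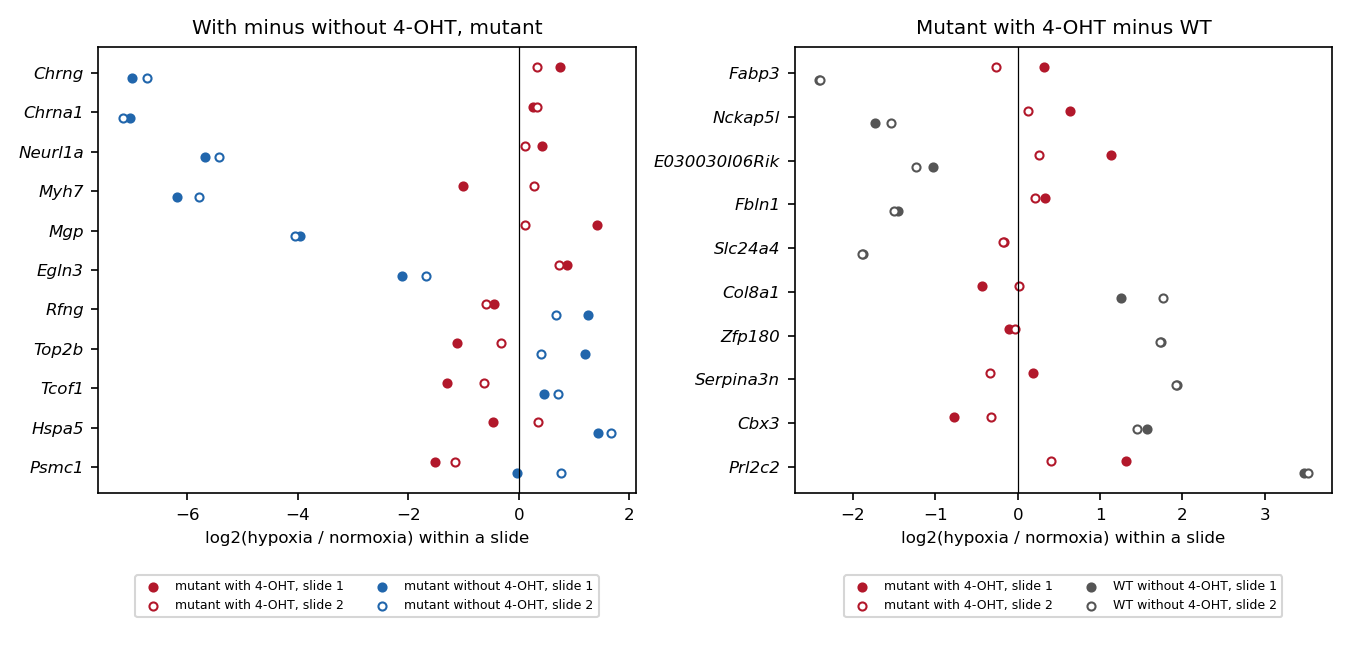
Log2 ratio of hypoxia over normoxia within slide 1 (filled) and slide 2 (open) for the genes with the largest called differences in response and Egln3. The left panel sets mutant cultures with 4-OHT (upper points of each gene) against those without it and the right panel sets them against WT cultures (lower points). With 4-OHT the points of Chrng, Chrna1 and Neurl1a lie at or right of 0, and without it they lie between -7.17 and -5.42, where the hypoxia arrays were at background.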

How the data were processed

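Primary mouse melanocytes were profiled on Illumina Mouse-6 BeadChips, 12 arrays in 6 groups of 2. The authors made biotin-labelled cRNA from 500 ng of RNA and summarised the beads with BeadStudio. Linear intensities form the deposited non-normalized values, and the deposited detection p-values compare each probe with the negative controls of its array. A second deposited set holds intensities after the authors' background subtraction and cubic spline normalization, and was used as an alternative with values floored at 16. The number of arrays limits the precision.

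Intensities were corrected by normexp with the background estimated from the detection p-values, an offset of 16, quantile normalization and log2 (limma 3.58.1, R 4.3.3). The 5 bright probes with a detection p above 0 but under 1 step of 1 in 1603 were left out of that estimate, since they raised the background SD to 100 to 178 units, against 5.86 to 7.00 without them. A log2 difference on this scale understates the change of dim probes. An "at least" fold sets the mean of the brighter group against, for each array of the dim group, the higher of the lowest normalized signal above background and the probe's own value.

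The main test was 1 limma fit to the 12 arrays with 6 pairs (culture type and slide) as blocks and a hypoxia term for each of 3 culture types, leaving 3 residual degrees of freedom, with Benjamini-Hochberg adjustment over 13694 probes and a threshold of 0.05. Deviations of arrays on the same slide correlated at 0.43 in mutant cultures with 4-OHT, 0.38 in those without and 0.14 in WT cultures, and the slide numbers come from the labels. Tested on simulated data with the same arrangement of arrays, the fit missed the smallest changes and called more unchanged probes than its threshold allows for. Each simulated probe had the same spread in every kind of culture, unlike in the data, where the spread was wider with 4-OHT.

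The probe table gives no gene symbols. Gene numbers, accessions and clone names inside the probe IDs were matched to RefSeq (GRCm38.p6), which named 10806 of 46628 probes. Of 11857 numbers read, 82.6% were in that table, against 46% after adding 1 to each. A gene was measured by its brightest kept probe. Named are the 10 genes with the smallest p in each direction (fewer than 10 passed), among those with the same sign on both slides. Of each list described, the called genes and up to the 4 smallest p are named. So are the 5 largest differences in each direction of each difference test, the label checks and the unnamed called probes. Further genes are given as examples chosen after their values were seen. The comparison and the lists were chosen with earlier results of these data known. Alternatives covered the background, offset, scaling, deposited values, the filter, the block, 4 arrays alone, an intensity trend and leaving out each pair.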

Additional observations from a re-analysis of the deposited data

Results flagged for a closer look

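The hypoxia response of mutant cultures with 4-OHT differed from that without 4-OHT for 932 probes and from that of WT cultures for 90 probes by the test of the difference itself (limma, adjusted p under 0.05). Among named genes, the responses with minus without 4-OHT had their largest fitted differences for Chrng (7.41 log2 units), Chrna1 (7.40), Neurl1a (5.83), Myh7 (5.61) and Mgp (4.78) on the higher side, and for Psmc1 (-1.69), Hspa5 (-1.60), Tcof1 (-1.55), Top2b (-1.52) and Rfng (-1.49) on the lower. Chrng, Chrna1, Neurl1a, Myh7 and Mgp were not well above background in hypoxia without 4-OHT. Psmc1 was not well above background in hypoxia with 4-OHT or on any array without it, and Top2b in hypoxia with 4-OHT or in normoxia without it. The values of these 7 genes depend on the background level and have no order. Egln3 differed by 2.71 log2 units. Against the WT response, the values were 2.44 for Fabp3, 2.02 for Nckap5l, 1.82 for E030030I06Rik, 1.75 for Fbln1 and 1.71 for Slc24a4, and -2.64 for Prl2c2, -2.06 for Cbx3, -2.00 for Serpina3n, -1.80 for Zfp180 and -1.72 for Col8a1. In WT cultures E030030I06Rik was not well above background in hypoxia, and Cbx3 in normoxia, so that these values also depend on the background level. With 2 arrays a group, no array could be tested for standing apart within its group.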

How the results depend on the processing

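Of the 42 single-gene results followed (21 responses with 4-OHT and 21 differences between responses), 0 reversed under any of the alternatives run. For the responses this was largely fixed in advance. The genes with the smallest p were taken only where both slides had the same sign, so leaving out either slide could not reverse them. Changing the filter, the block or the trend, or leaving out other cultures, leaves the fitted response as it was. The 5 called probes of the response with 4-OHT became 0 with the background estimated from all detection p-values (1461 at an unadjusted p under 0.05), 0 with no filter (3811), 2 with an offset of 50 and 2 with the deposited normalized values. With the 4 arrays alone the count was 0 with the replicate block (619) and 0 without it (210). With the background from all detection p-values the difference from the response without 4-OHT had 379 called probes and that from the WT response 28. That from the WT response was also 16 with an offset of 50, 28 with the deposited values, 57 with detection required on both arrays of a group and 0 with no filter (5427). Without the replicate block the counts were 4 for the response, 631 for the difference from mutant cultures without 4-OHT and 27 for that from WT cultures. Leaving out 1 pair of arrays gave 0 to 2614 called probes for the response, 318 to 3587 for the difference from mutant cultures without 4-OHT and 0 to 2540 for that from WT cultures. The highest of each came without replicate 2 of the mutant cultures with 4-OHT, when slide 1 alone gave the response and its spread was taken from the other cultures. Where replicate 1 was left out, the median response was 0.44 log2 units for glycolysis, -0.02 for ribosomal proteins and -0.10 for the respiratory chain. The glycolysis median was 0.34 to 0.49 over all alternatives. NeoR was not called in 8 of its 18 alternatives, and over all 18 its adjusted p ran from 1.20e-04 to 1 and its response from 1.79 to 2.54 log2 units. Of the 21 differences, 17 lost the call under at least 1 alternative. The cause was not tested for the settings that change the values themselves.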
